A study of Homo sapiens with 48 samples.

Results

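The untreated arm of a proteasome-inhibitor study was used to compare baseline gene expression between 2 multiple myeloma lines and 6 carcinoma lines. The 24 libraries of cells given only DMSO, the solvent control, were chosen out of 48 libraries, whose other members had received carfilzomib, an irreversible proteasome inhibitor. The myeloma lines were H-929 and a line labelled RPMI. The carcinoma lines came from colon (RKO, DLD-1), lung (H-23, H-1299) and pancreas (PANC-1, CAPAN-2). Each line had 3 DMSO libraries collected at 24 h and described as biological triplicates, so there were 6 myeloma and 18 carcinoma libraries. The labels name no transgene or knockout in any line, and all groups received DMSO. Each is 1 established line, and the labels say only that standard 2D culture was used for each line, so tumour type, growth mode and any difference in culture medium cannot be told apart.

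Multiple myeloma is a tumour of plasma cells, the terminally differentiated B cells that secrete antibody. Plasma cell identity depends on the transcription factors IRF4, PRDM1 (Blimp-1) and XBP1, and antibody export depends on an enlarged endoplasmic reticulum (ER) with its chaperones and translocation machinery. Carcinomas arise from epithelia, whose cells attach to each other and to matrix through cadherins, keratins, integrins and focal adhesions. Proteasome inhibitors are a standard treatment of myeloma, and the level of proteasome, ER and heat shock genes before treatment is one question that the untreated arm can address.

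Total counts per library lay between 12.6 M and 64.4 M (M, 1e6 counts). Levels are given as CPM, counts per 1e6 counts of the library, with TMM scaling, a correction for differences in RNA composition, as the mean ± SD over the 3 libraries of a line. Cell lines, not libraries, were the units of every comparison: the 3 libraries of each line were summed, and 2 myeloma sums were compared with 6 carcinoma sums with edgeR's quasi-likelihood test. A gene is said to be higher, lower or called where the Benjamini-Hochberg adjusted p over all 21814 genes tested was under 0.05, and every adjusted p below is from that fit unless another is named. Log2 fold changes are myeloma minus carcinoma, with their standard error (SE), and compare the mean level of each group, so 1 line with a very high level can set them. The first principal component held 28% of the variance and placed the myeloma libraries between -209.9 and -200.6, RKO between -0.06005 and 1.795, and the other carcinoma libraries between 41.51 and 117.6. Bulk libraries cannot separate fewer cells with a transcript from less RNA per cell.

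The main contrast called 316 of the 21814 genes, a background of 1.45%. Higher levels in the myeloma lines accounted for 230 calls (1.05% of genes tested) and lower levels for 86 (0.394%). At an unadjusted p under 0.05 the 2 directions were closer, with 1717 genes higher and 1793 lower. The lowest myeloma line mean lay above the highest carcinoma line mean for 1792 genes (8.21%), and the highest myeloma mean lay below the lowest carcinoma mean for 2153 (9.87%). The median log2 fold change over all genes was -0.20, and it moved by -0.21, to -0.41, when library totals replaced TMM scaling. The number and balance of calls depended on the test and on single lines: limma on the line means called 407 genes higher and 363 lower, DESeq2 called 990 and 1745, and the calls fell to 59 and 21 without PANC-1.

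Calls were mostly of genes that were on in 1 tumour type and nearly off in the other. Of the 230 higher genes, 10 share an identifier with another row of the table, so that their reads may be split, and 220 have a row of their own. All 6 carcinoma line means were below 1 CPM for 143 of those 220 genes. The median absolute log2 fold change was 7.89 among the higher calls and 6.52 among the lower ones. Protein-coding genes made up 181 of the 220 higher calls and 74 of the 85 lower calls with a row of their own. Line means did not overlap for 214 of the 220 higher genes and for all 85 lower genes. In the 6 exceptions, ANKRD30A, ARHGAP30, CD8B, CPNE5, IGSF10 and LAPTM5, 1 myeloma line lay within the carcinoma range.

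**Figure D1:**
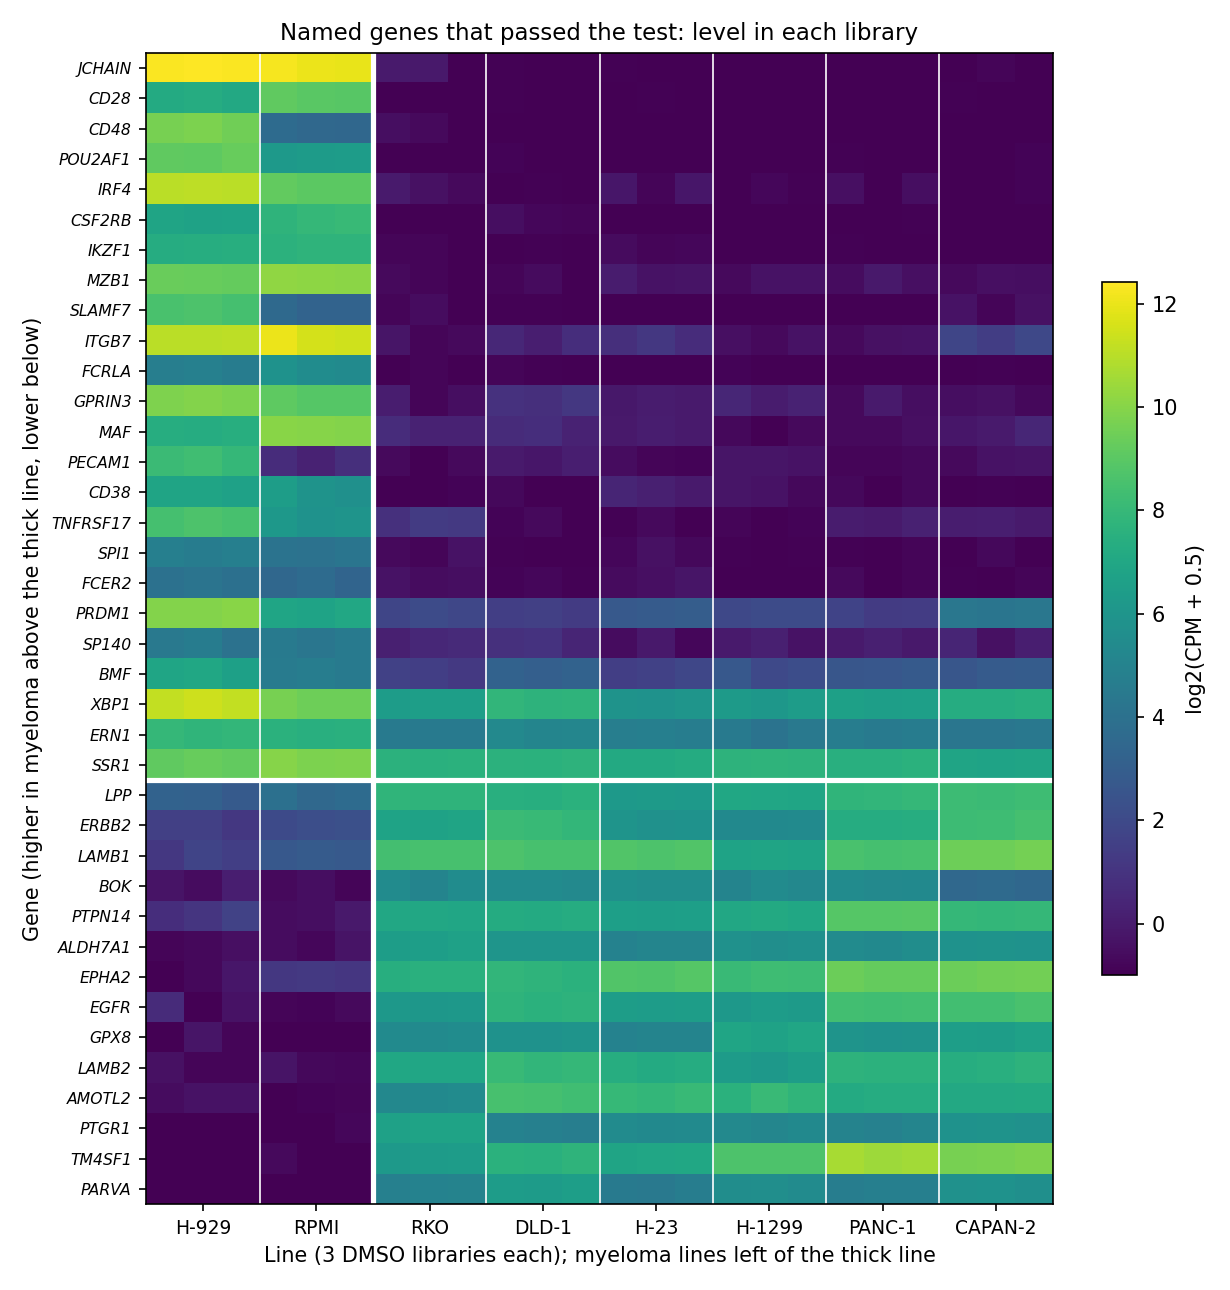
Level of each named gene that passed the test, as log2(CPM + 0.5), in each of the 24 DMSO libraries (columns, 3 per line). Genes higher in the myeloma lines stand above the thick horizontal line and are mostly dark (near 0 CPM) in the carcinoma libraries, and genes lower in the myeloma lines stand below it. The 3 libraries of a line look alike, while H-929 and RPMI differ for genes such as CD48, SLAMF7 and PECAM1.

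Genes of plasma cell identity were higher in the myeloma lines. Of 18 members of that list tested, 11 were higher and none lower, against 1.05% and 0.394% of all genes, and the median log2 fold change was 6.65 against -0.20 for all genes. IRF4, a master transcription factor of plasma cells and a myeloma survival factor, stood at 2113 ± 66.8 CPM in H-929 and 547 ± 31.4 CPM in RPMI. Its highest carcinoma mean was 0.288 CPM in RKO and the carcinoma median was 0.0919 CPM. The groups were far apart, with a log2 fold change of 13.37 ± 1.36 (adjusted p = 0.00719). PRDM1, the repressor that ends the B cell programme, was at 1011 ± 49.8 and 120 ± 11.4 CPM in H-929 and RPMI and at 2.25 to 19 CPM in the carcinoma lines, where CAPAN-2 was highest (6.50 ± 0.97, adjusted p = 0.022). XBP1 drives expansion of the secretory pathway and, unlike IRF4, was present in every line. Its level was 2477 ± 209 CPM in H-929 and 734 ± 66.8 CPM in RPMI against 59.6 CPM (H-23) to 217 CPM (DLD-1) in the carcinoma lines, a log2 fold change of 3.76 ± 0.56 (adjusted p = 0.022).

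The coactivator POU2AF1, which works with octamer-binding factors in B cells, was at 584 ± 46.2 CPM in H-929 and 81.4 ± 3.29 CPM in RPMI and had only 5 counts in the 6 carcinoma lines together (15.14 ± 1.18, adjusted p = 0.00251). JCHAIN, which joins polymeric antibody, reached 5290 ± 191 and 4314 ± 407 CPM, the highest myeloma levels among the named genes, against at most 0.310 CPM in a carcinoma line (16.85 ± 1.84, adjusted p = 0.00829). MZB1, an ER cofactor of antibody assembly, was the reverse of IRF4 in that RPMI held more than H-929, with 1137 ± 28.3 against 631 ± 28.1 CPM. Carcinoma means of MZB1 ran from 0.0675 to 0.379 CPM (12.09 ± 0.77, adjusted p = 0.00139). Of the surface proteins on the list, TNFRSF17, CD38, SLAMF7 and FCRL5 were higher. FCRL5 was at 11.3 CPM in H-929 but only 0.281 CPM in RPMI, against at most 0.0212 CPM in DLD-1 (9.78, adjusted p = 0.0345). TNFRSF17 (BCMA) stood at 380 ± 27.6 and 62.6 ± 7.83 CPM against at most 1.73 CPM in RKO (8.78 ± 1.52, adjusted p = 0.0345). CD38 was at 110 ± 5.67 and 66.9 ± 18.5 CPM against at most 0.643 CPM in H-23 (8.94 ± 1.36, adjusted p = 0.0233). SLAMF7 differed widely between the myeloma lines, at 379 ± 31.6 CPM in H-929 and 9.97 ± 1.41 CPM in RPMI, and no carcinoma line exceeded 0.205 CPM (11.88 ± 1.99, adjusted p = 0.0306).

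Not every plasma cell marker passed the test. SDC1 (CD138), the surface proteoglycan used to isolate plasma cells, was at 559 ± 35.5 and 420 ± 11.7 CPM in the myeloma lines but also at 369 ± 35.5 CPM in CAPAN-2 and 199 ± 9.49 CPM in PANC-1. Its carcinoma values fell as low as 8.31 CPM in H-1299. The line means did not overlap, but the difference did not pass (1.64 ± 0.90, adjusted p = 0.398). GPRC5D was at 178 CPM in H-929 but at 8.76 CPM in RPMI, close to the 8.08 CPM of CAPAN-2 (adjusted p = 0.0525). The B cell markers CD27 and CD79A were below 1 CPM in every line. Of the immunoglobulin constant genes listed, 14 of 15 had no row and are not analysed here. IGLL5, which lies in the lambda locus, was at 466 CPM in H-929, 3.32 CPM in RPMI and 0 in every carcinoma library (adjusted p = 0.1), and limma and DESeq2 each called it higher.

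IRF4, POU2AF1, JCHAIN and MZB1 were called under each of the 23 alternative settings. The calls of XBP1, PRDM1, CD38, SLAMF7 and TNFRSF17 rested on single lines. SEC11C, also on the list and called, was at 725 CPM in H-929 and 411 CPM in RPMI against 17.1 to 33.1 CPM (log2 fold change 4.50, adjusted p = 0.00251). Without PANC-1 the list had 5 calls in place of 11, beside 59 higher calls in place of 230 over all genes. XBP1 was then not called (adjusted p = 0.0619), nor was PRDM1 without DLD-1, H-23 or PANC-1 (0.051 to 0.0585). Without H-929 the log2 fold changes of XBP1 and PRDM1 were 2.65 and 4.33, against 3.76 and 6.50 with all lines. CD38 lost its call without H-929, RPMI, DLD-1 or PANC-1 (0.0515 to 0.0691) and in the carfilzomib libraries (0.0522), SLAMF7 without any single line but RPMI or CAPAN-2 (0.052 to 0.192), and TNFRSF17 without any single line but RKO (0.053 to 0.13).

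Genes of the general leukocyte programme followed. Of 26 leukocyte genes tested, 12 were higher and none lower (1.05% and 0.394% of all genes), with a median log2 fold change of 5.93. The line means did not overlap for 20 of the 26 (background 8.21%). IKZF1 (Ikaros), a lymphoid transcription factor whose degradation some of the drugs used in myeloma induce, was at 163 ± 3.76 CPM in H-929 and 208 ± 10.9 CPM in RPMI. No carcinoma line exceeded 0.0991 CPM of IKZF1 (12.74 ± 1.35, adjusted p = 0.0074). The related IKZF3 (Aiolos) was at 312 ± 5.38 and 99.6 ± 9.98 CPM but also at 39.9 ± 3.21 CPM in the colon line RKO and 9.22 CPM in H-23, and was not called (4.57 ± 1.59, adjusted p = 0.217). The largest difference among the called leukocyte genes was that of CD48, with 809 ± 78.3 CPM in H-929 and 11.4 ± 1.00 CPM in RPMI against 5 carcinoma counts in all, each in RKO (15.20 ± 2.06, adjusted p = 0.0161). The smallest was that of the nuclear body protein SP140, with 20.5 ± 3.94 and 21 ± 2.04 CPM against 0.236 to 1.19 CPM (5.03 ± 0.70, adjusted p = 0.0176). Without PANC-1 the list had 5 calls in place of 12, beside 59 higher calls in place of 230 over all genes. CD48 was not called without H-929, RKO or PANC-1 (adjusted p = 0.0516 to 0.123), nor SP140 without PANC-1 (0.0552).

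The blood cell programme was incomplete in each myeloma line. PTPRC (CD45), the pan-leukocyte phosphatase, was at only 1.79 ± 0.410 CPM in H-929 and 4.09 ± 0.786 CPM in RPMI against at most 0.463 CPM in the carcinoma lines, and it has several rows (4.33 with its rows summed, adjusted p = 0.15). The lysosomal protein LAPTM5 was at 425 CPM in RPMI and 0.210 CPM in H-929, within the carcinoma range. LCP1 (L-plastin), an actin bundling protein of leukocytes, was at 1330 CPM in RPMI, 46 CPM in H-929 and 402 CPM in RKO. Of 11 mature B cell genes tested, 2 were higher and none lower (1.05% and 0.394% of all genes), with a median log2 fold change of 0.26. The list was mixed, with 5 negative members, and 1 lower call with limma and 2 with DESeq2. Line means did not overlap for 2 members in each direction (8.21% and 9.87% of all genes). The called pair were FCRLA, at 26.4 ± 2.30 and 48.1 ± 8.24 CPM against at most 0.0308 CPM (11.23 ± 1.27, adjusted p = 0.00829), and FCER2 (CD23), at 16.1 ± 1.42 and 11 ± 1.57 CPM against at most 0.241 CPM (7.02 ± 1.33, adjusted p = 0.0451). FCER2 lost its call without any single line but H-1299 (0.0662 to 0.121), with library totals, against a fold of 1.5 and in the carfilzomib libraries (0.0583). PAX5, a transcription factor of B cells before the plasma cell stage, was at 0.313 CPM in H-929 and 0.413 CPM in RPMI.

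Markers of other cell types were taken from short lists, to be read beside 1.05% of all genes called higher and 0.394% called lower. T and NK cell genes gave 0 calls of 6 tested with edgeR (1 at an unadjusted p under 0.05, 0 with limma, 1 lower with DESeq2), and the summed level of the list was 5.01 to 28.4 CPM in the myeloma lines and 0.444 to 20.1 CPM in the carcinoma lines. CD3D was at 0 in both myeloma lines, and CD3E was at 22 CPM in H-929. Myeloid genes gave 1 higher call of 7, SPI1 (PU.1), at 26.3 ± 1.92 and 17.1 ± 1.05 CPM against at most 0.163 CPM (8.32 ± 1.13, adjusted p = 0.0166, and 0.0527 without PANC-1), while MPO, S100A8 and S100A9 were below 0.3 CPM in every line. Endothelial genes gave 1 higher call of 3, PECAM1 (CD31). It was at 284 ± 35.6 CPM in H-929 and 1.04 ± 0.293 CPM in RPMI against at most 0.491 CPM, with CDH5, TEK and EMCN at or below 1 CPM. The PECAM1 call (9.28 ± 1.46, adjusted p = 0.0242) was lost without any single line but RPMI (0.0534 to 0.474), with limma (0.106) and in the carfilzomib libraries (0.0523). The summed fibroblast list was at 163 CPM in PANC-1, of which COL3A1 held 148 CPM, at 20.6 CPM in H-23 and at most 5.83 CPM in the other lines. No erythroid gene of 2 tested or fibroblast gene of 5 was called by edgeR, limma or DESeq2, and none had an unadjusted p under 0.05. The part of these markers in the results was not tested.

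The markers of colon, lung and pancreatic tissue described here followed the labels of the carcinoma lines only in part. Between myeloma and carcinoma lines, edgeR called 0 of 10 tested (1 higher and 3 lower at an unadjusted p under 0.05), limma 0 and DESeq2 4 lower. That contrast, which called 1.05% of all genes higher and 0.394% lower with edgeR, does not compare the carcinoma lines with each other. CDX2, the intestinal transcription factor, was at 113 CPM in DLD-1 and 20.6 CPM in RKO, the highest values of the series, and at 12.4 CPM in CAPAN-2. The lung markers SFTPB and NAPSA did not exceed 2.38 CPM in H-23 or H-1299, and the pancreatic factor PDX1 was at 1.11 CPM in PANC-1 and 1.04 CPM in CAPAN-2, below the 7.59 CPM of RKO. Of the other members, SOX9 ran from 2.31 CPM in RKO to 219 CPM in DLD-1 and GATA6 from 0.35 CPM in PANC-1 to 79.9 CPM in DLD-1. HNF4A was at 32.7 CPM in DLD-1, 13.3 CPM in CAPAN-2 and 0 in RKO. The lung marker NKX2-1 had no row and was not analysed.

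Among called genes with a row of their own, those with the widest gap between the nearest lines of the 2 groups included receptors and adhesion molecules of lymphocytes. After JCHAIN, MZB1 and IRF4 came ITGB7, the integrin chain that pairs with an alpha chain to bind mucosal ligands, at 2102 ± 49.5 CPM in H-929 and 3305 ± 732 CPM in RPMI. Its carcinoma means ran from 0.178 CPM to 2.82 CPM in CAPAN-2 (11.44 ± 1.18, adjusted p = 0.00719). CD28, the costimulatory receptor best known from T cells, was at 147 ± 11.3 and 521 ± 38.2 CPM and had 3 counts in all carcinoma libraries together (adjusted p = 9.2e-04). GPRIN3 was at 925 ± 60.5 and 500 ± 48.7 CPM against at most 1.47 CPM in DLD-1 (10.29 ± 0.84, adjusted p = 0.00265). CSF2RB, the shared beta chain of the IL-3, IL-5 and GM-CSF receptors, was at 111 ± 5.33 and 241 ± 24.2 CPM against at most 0.119 CPM in DLD-1 (12.76 ± 1.71, adjusted p = 0.0161, and 0.0516 to 0.0574 without RPMI or PANC-1). ITGB7, CD28, GPRIN3 and IKZF1 were called under all 23 alternatives.

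The 2 myeloma lines were not interchangeable. Among the 220 higher genes, 142 were within 4-fold of each other in H-929 and RPMI on the CPM + 0.5 scale, 57 were at least 4-fold higher in H-929 and 21 at least 4-fold higher in RPMI. Genes that chromosome rearrangements are known to activate in myeloma also differed between the lines. FGFR3 and NSD2, neighbours that a known myeloma translocation activates together, were at 554 and 1635 CPM in H-929. In RPMI FGFR3 and NSD2 were at 1.29 and 245 CPM, against carcinoma ranges of 1.51 to 45.7 CPM for FGFR3 and 233 to 699 CPM for NSD2, and neither was called (adjusted p = 0.24 and 0.384). MAF, a transcription factor and another translocation target, was at 1014 ± 26.1 CPM in RPMI and 165 ± 5.61 CPM in H-929 against at most 1.01 CPM in DLD-1 (10.13 ± 1.02, adjusted p = 0.00703, called under all 23 alternatives). MAF was the 1 call among 9 genes of that list, beside 1.05% of all genes called higher. CCND2, a D-type cyclin that MAF induces, was at 1290 ± 73.8 CPM in RPMI and 126 ± 3.72 CPM in H-929. CCND2 was also at 583 ± 8.80 CPM in H-23 and 232 ± 6.76 CPM in RKO and below 10 CPM in the other 4 carcinoma lines, and its difference reversed from 2.40 ± 2.44 to -0.11 without RPMI (adjusted p = 0.642). CCND1 was at 59.7 to 250 CPM in the myeloma lines and 174 to 1028 CPM in the carcinoma lines, which overlap, without a call (-1.71 ± 0.86, adjusted p = 0.362). MYC was at 947 and 1158 CPM in the myeloma lines against 64.2 to 534 CPM, with no overlap and no call (2.20 ± 0.62, adjusted p = 0.131).

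**Figure D2:**
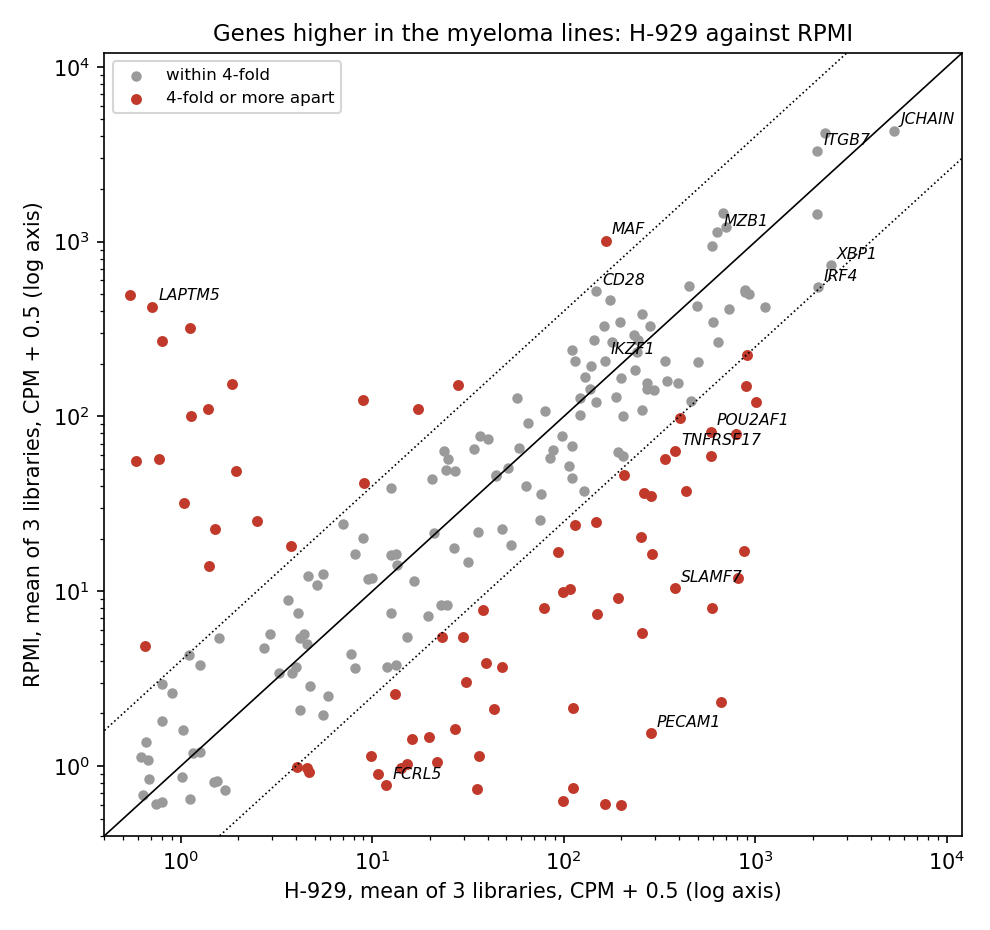
Mean level in H-929 (x axis) against RPMI (y axis) of the 220 genes called higher in the myeloma lines that have a row of their own, as CPM + 0.5 on log axes. The solid line marks equal levels and the dotted lines 4-fold differences. 142 genes (grey) lie between the dotted lines, 57 lie on or below them towards H-929 and 21 on or above them towards RPMI (red).

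Most ER genes had higher levels in the myeloma lines, and few passed. Of 38 genes of ER folding and export tested, 5 were higher and none lower (1.05% and 0.394% of all genes). A positive log2 fold change was seen for 36, and the line means of 23 did not overlap (background 8.21%). The median was 1.38 against -0.20 for all genes, and 1.2 with library totals. ERN1 (IRE1), the sensor that splices XBP1 mRNA, was at 235 ± 10.7 CPM in H-929 and 184 ± 6.25 CPM in RPMI. The carcinoma lines held 19.3 to 36.5 CPM with a median of 23 CPM, a narrow range, and ERN1 was called under all 23 alternatives (3.07 ± 0.32, adjusted p = 0.00719). HERPUD1, an ER-associated degradation factor, was at 604 and 346 CPM against 43.8 to 106 CPM (2.83 ± 0.43, adjusted p = 0.0221). DNAJB9, a cochaperone of BiP, was at 97.9 and 77.2 CPM against 14.2 to 24.8 CPM (2.17 ± 0.34, adjusted p = 0.024). SPCS1, a signal peptidase subunit, was at 280 and 330 CPM against 53.1 to 94.3 CPM (2.21 ± 0.30, adjusted p = 0.0166). SSR1, a subunit of the translocon-associated complex, had the smallest called difference, with 595 ± 34 and 938 ± 63.1 CPM against 113 to 208 CPM (2.14 ± 0.33, adjusted p = 0.0233, 0.0543 to 0.117 without RPMI, DLD-1, H-23 or PANC-1, and 0.183 in the carfilzomib libraries). Without PANC-1 the 5 calls fell to 1, beside 59 higher calls in place of 230 over all genes, and DESeq2 made 18.

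The most abundant ER chaperones did not pass. HSPA5 (BiP), the main ER HSP70, was at 1173 ± 95.1 CPM in H-929 but at 547 ± 19.4 CPM in RPMI, below the 1033 ± 57.7 CPM of RKO (0.94 ± 0.65, adjusted p = 0.485). HSP90B1 (GRP94) was at 2646 ± 58.8 and 1513 ± 5.29 CPM against 707 to 1332 CPM, with no overlap and no call (1.01 ± 0.34, adjusted p = 0.198). CALR was likewise at 2384 and 1355 CPM against 454 to 1278 CPM (adjusted p = 0.281), and the thioredoxin-like TXNDC5 was at 1210 and 137 CPM against 3.77 to 62.7 CPM (adjusted p = 0.0685). The negative members were PDIA3 (-0.43 ± 0.47) and DNAJC3 (-0.15 ± 0.76).

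Promoter sequence offers a description of which of these genes carry letters known from ER stress and B cell regulation. Sequences of the 250 bases before the start of 27305 genes were taken from RefSeq (GRCh38.p14), 1 start per gene. The ER stress element, read here as CCAAT and CCACG separated by 9 bases on either strand, stood in 22 of the 27305 promoters (0.0806%), in 5 of the 36 ER genes that had a promoter (13.9%; CALR, CANX, CRELD2, HSP90B1 and HSPA5) and in XBP1. It stood in 1 of 159 promoters of higher genes, that of XBP1, and in 0 of 67 of lower genes. The octamer ATGCAAAT, which POU2F factors bind with POU2AF1, was in 454 of all promoters on either strand (1.66%), in 4 of 159 of higher genes (2.52%; CD320, CD53, PIM2 and TLR9) and in 1 of 67 of lower genes (1.49%; ZMYM1). The following promoters are shown because they hold such a match for a gene of the ER or lymphoid group, 5′ to 3′ on the gene's strand, with the matched bases in capitals. A match describes the letters only.

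XBP1, GRCh38.p14, chr22:28800570-28800819, minus strand, ER stress element:
XBP1: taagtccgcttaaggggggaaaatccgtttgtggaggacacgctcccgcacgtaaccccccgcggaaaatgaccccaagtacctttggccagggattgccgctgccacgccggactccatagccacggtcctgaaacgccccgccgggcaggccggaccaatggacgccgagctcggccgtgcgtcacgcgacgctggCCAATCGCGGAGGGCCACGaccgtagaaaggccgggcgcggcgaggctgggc
HSPA5, chr9:125241344-125241593, minus strand, ER stress element:
HSPA5: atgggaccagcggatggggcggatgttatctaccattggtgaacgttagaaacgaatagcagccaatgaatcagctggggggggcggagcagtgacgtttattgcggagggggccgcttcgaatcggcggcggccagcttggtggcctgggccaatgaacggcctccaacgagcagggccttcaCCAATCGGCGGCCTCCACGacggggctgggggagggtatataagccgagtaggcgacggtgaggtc
CRELD2, chr22:49918384-49918633, plus strand, ER stress element on the opposite strand:
CRELD2: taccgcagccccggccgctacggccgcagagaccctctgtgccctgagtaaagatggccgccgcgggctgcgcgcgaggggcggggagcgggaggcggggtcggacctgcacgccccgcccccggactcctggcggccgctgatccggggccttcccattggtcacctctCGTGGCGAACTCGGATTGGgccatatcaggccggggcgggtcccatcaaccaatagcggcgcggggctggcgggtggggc
CD53, chr1:110870960-110871209, plus strand, octamer on the opposite strand:
CD53: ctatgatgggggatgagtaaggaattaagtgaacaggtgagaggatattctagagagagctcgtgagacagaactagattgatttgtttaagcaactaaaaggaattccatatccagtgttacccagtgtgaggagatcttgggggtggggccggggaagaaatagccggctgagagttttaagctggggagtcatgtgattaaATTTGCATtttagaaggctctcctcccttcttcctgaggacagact
PIM2, chrX:48919025-48919274, minus strand, octamer on each strand:
PIM2: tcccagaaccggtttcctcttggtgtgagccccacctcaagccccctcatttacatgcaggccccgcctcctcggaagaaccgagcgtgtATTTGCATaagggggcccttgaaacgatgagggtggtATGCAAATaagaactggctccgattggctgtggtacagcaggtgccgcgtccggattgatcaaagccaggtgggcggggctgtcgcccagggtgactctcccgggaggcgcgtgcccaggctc

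The ER stress element of XBP1 lay 52 to 34 bases before the start and that of HSPA5 66 to 48 bases before it. Of these 5 genes, XBP1 was called, HSPA5 was not, and CRELD2, at 57.9 and 50.2 CPM against 14.3 to 46 CPM, was not (0.93 ± 0.49, adjusted p = 0.376). CD53, a tetraspanin of leukocytes, was at 203 and 101 CPM against at most 0.694 CPM (8.95 ± 1.57, adjusted p = 0.0354), and the kinase PIM2 was at 887 and 515 CPM against 13.7 to 60.2 CPM (log2 fold change 4.68, adjusted p = 0.00959).

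Most genes of matrix attachment had lower levels in the myeloma lines, and a few passed. Of 30 focal adhesion and actin anchorage genes tested, 4 were lower and none higher (0.394% and 1.05% of all genes), 29 had a negative log2 fold change, and the line means of 18 did not overlap (background 9.87%). The median was -3.46. PARVA (alpha-parvin), an integrin-linked adaptor, had 0 counts in the 6 myeloma libraries and stood at 22.8 to 86.5 CPM in the carcinoma lines (adjusted p = 0.0074). With 3 counts over the myeloma group as the floor, that was at least 2090-fold lower. In the carfilzomib libraries of the same lines PARVA was not called (-6.37, adjusted p = 0.0856). PTK2 (focal adhesion kinase) was at 7.26 and 2.09 CPM against 140 to 441 CPM (-5.68 ± 0.85, adjusted p = 0.022), and LIMA1 at 3.83 and 3.85 CPM against 75.4 to 450 CPM (-5.55 ± 0.91, adjusted p = 0.029). The smallest called difference was that of LPP, at 7.89 ± 1.34 and 12.9 ± 1.92 CPM against 76.6 to 292 CPM (-4.17 ± 0.67, adjusted p = 0.0263, 0.0505 to 0.138 without H-929, RPMI, RKO, DLD-1 or PANC-1, and 0.0903 in the carfilzomib libraries). ITGB1, the common integrin beta chain, was at 142 ± 3.83 and 82.3 ± 1.57 CPM against 391 to 3819 CPM, with no overlap and no call (-3.84 ± 1.00, adjusted p = 0.111). Without PANC-1 the list had 1 call, beside 21 lower calls in place of 86 over all genes, while limma made 10 and DESeq2 19.

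The YAP and TEAD pathway responds to attachment and cell shape. Of 16 tested, 3 were lower and none higher (0.394% and 1.05% of all genes), 11 did not overlap (background 9.87%), and the median was -5.42 against -0.20 for all genes. AMOTL2, a YAP-binding scaffold and target, was at 0.258 ± 0.0632 and 0.0338 ± 0.0313 CPM against 40.9 CPM (RKO) to 345 CPM (DLD-1), a log2 fold change of -10.38 ± 1.39 (adjusted p = 0.0162, and 0.0576 without RPMI). PTPN14, a YAP inhibitor, was at 1.80 ± 0.757 and 0.274 ± 0.137 CPM against 94.2 to 478 CPM (-7.67 ± 1.23, adjusted p = 0.026, and 0.0526 to 0.0901 without H-929, RPMI or DLD-1). TEAD2 was at 0.0489 and 0.0530 CPM against 2.11 to 34.7 CPM (-9.01 ± 1.44, adjusted p = 0.026). YAP1 itself was at 7.74 ± 2.20 CPM in H-929 and 0.0691 ± 0.0646 CPM in RPMI against 156 to 282 CPM, with no overlap, and did not pass (-5.80 ± 1.58, adjusted p = 0.123). It was called lower when H-929 (-11.90, adjusted p = 0.00749) or RPMI (-4.79, 0.0272) was left out, with limma (-7.83, 0.00916) and with DESeq2 (4.2e-05). The YAP target CCN1 was at 0.167 ± 0.238 and 0.324 ± 0.0547 CPM against 6.28 to 195 CPM (-8.60 ± 1.73, adjusted p = 0.0538, and 0.0331 without CAPAN-2). TEAD1 and NF2, by contrast, were at 59.4 to 162 CPM in the myeloma lines and had log2 fold changes of -0.96 ± 0.47 and -0.26 ± 0.38. The calls fell to 1 without DLD-1, beside 32 lower calls in place of 86 over all genes, and were 7 with limma and 10 with DESeq2.

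Receptor tyrosine kinases relay growth factor signals in epithelia. Of 17 tested, 3 were lower and none higher (0.394% and 1.05% of all genes), with a median of -3.96 against -0.20 for all genes. The log2 fold change was negative for 14 and positive for 3. At an unadjusted p under 0.05, 9 were lower and 1 higher (1793 and 1717 of all genes). EGFR, the epidermal growth factor receptor, was at 0.446 ± 0.540 and 0.0758 ± 0.0433 CPM against 70.2 CPM (RKO) to 344 CPM (CAPAN-2), with 27 counts in all 6 myeloma libraries (-9.48 ± 1.42, adjusted p = 0.022, and 0.0516 to 0.0876 without H-929, RPMI or PANC-1 or in the carfilzomib libraries). EPHA2, an ephrin receptor, was at 0.162 ± 0.187 and 1.79 ± 0.0814 CPM against 180 to 732 CPM (-8.72 ± 1.40, adjusted p = 0.026, and 0.0551 to 0.0619 without H-929, H-23 or PANC-1). ERBB2 (HER2) was at 2.19 ± 0.375 and 4.03 ± 0.445 CPM against 41.5 to 317 CPM and only just passed (-5.64 ± 1.10, adjusted p = 0.0498). It lost its call without any single line but H-1299 (0.0605 to 0.225), without replicate 1 or 2 of every line, against a fold of 1.5 and in the carfilzomib libraries (0.0649). MET was at 24.8 ± 2.14 and 0.382 ± 0.183 CPM against 155 to 1777 CPM and was not called (-5.34 ± 1.86, adjusted p = 0.217). Without PANC-1 the list had 0 calls, beside 21 lower calls in place of 86 over all genes, while limma made 5 and DESeq2 9.

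The widest gaps below the carcinoma lines added surface and detoxification genes. TM4SF1, a tetraspanin-like surface protein, had 2 counts in the 6 myeloma libraries and stood at 81.1 CPM in RKO to 1541 CPM in PANC-1 (adjusted p = 0.025, and 0.107 to 0.125 without H-929 or RPMI). LAMB2, a laminin chain of basement membranes, was at 0.126 ± 0.104 and 0.177 ± 0.124 CPM against 79.9 to 246 CPM (-10.20 ± 0.78, adjusted p = 0.00251). Its relative LAMB1 was the 1 call among 25 mesenchymal and matrix genes (0.394% of all genes were called lower, and the list had 3 lower calls with limma, 11 with DESeq2 and a median of -3.87). LAMB1 was at 2.30 ± 0.523 and 6.38 ± 0.406 CPM against 112 to 730 CPM (-6.49 ± 0.95, adjusted p = 0.0213, and 0.0548 to 0.0965 without H-929, RPMI or PANC-1). PTGR1, a prostaglandin reductase, had 3 counts in the myeloma libraries against 28.5 to 108 CPM (adjusted p = 0.0118). GPX8, an ER peroxidase, was at 0.142 ± 0.187 CPM in H-929 and 0 in RPMI against 31.6 to 116 CPM (-9.90 ± 1.59, adjusted p = 0.026, 0.055 to 0.063 without DLD-1 or PANC-1, and 0.0706 in the carfilzomib libraries). ALDH7A1, an aldehyde dehydrogenase, was at 0.133 ± 0.0803 and 0.194 ± 0.115 CPM against 32.8 to 94.4 CPM (-8.41 ± 0.77, adjusted p = 0.00466). LAMB2, PTGR1 and ALDH7A1 were called under all 23 alternatives.

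**Figure D3:**
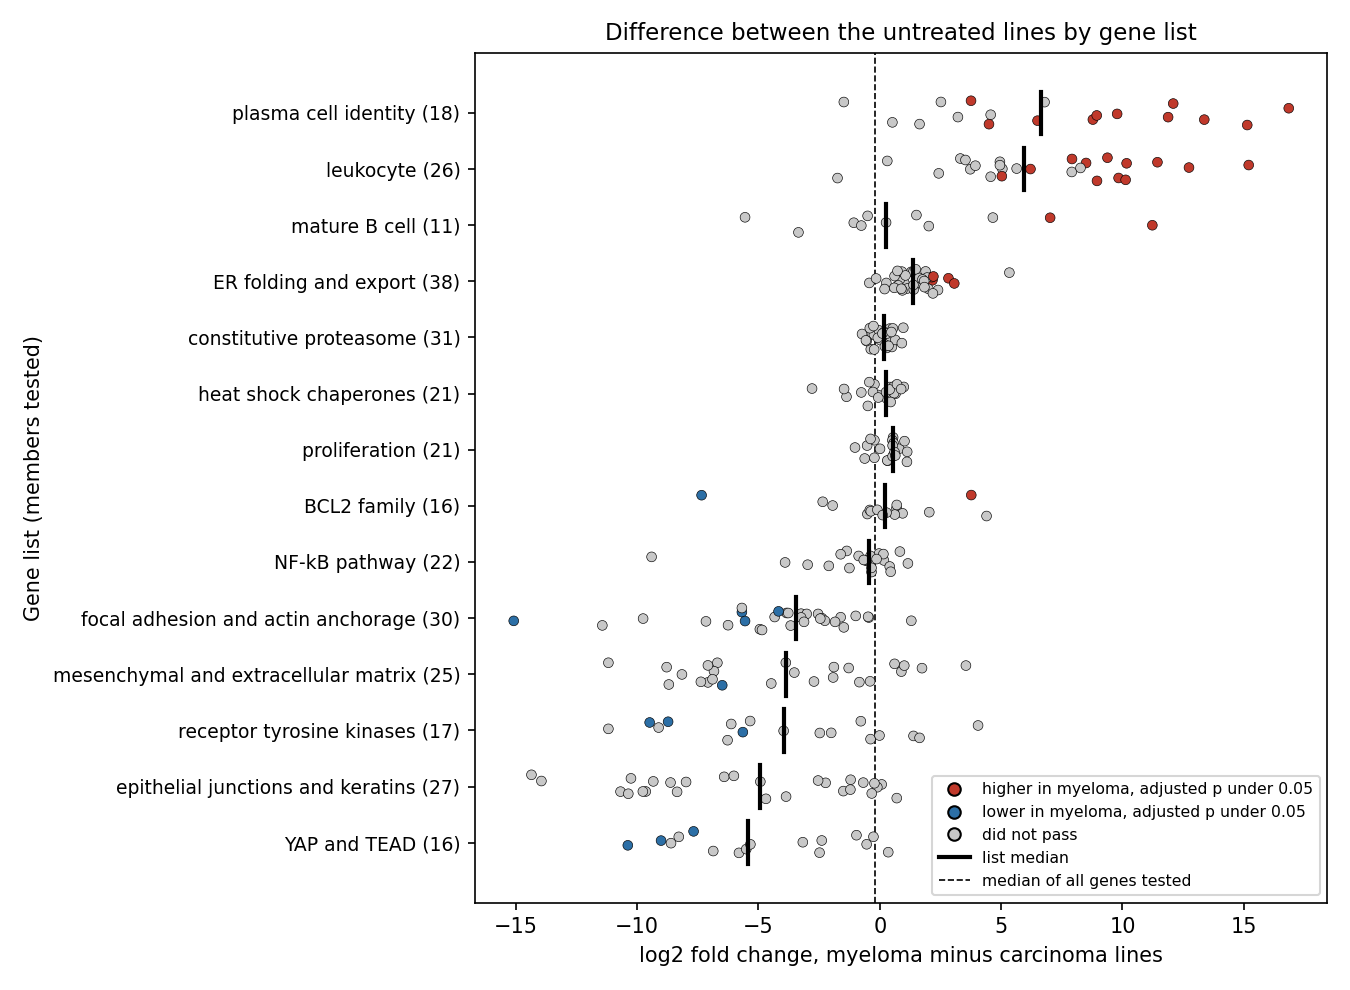
Log2 fold change, myeloma minus carcinoma lines, of each tested member (points) of 14 gene lists, with the list median (bar) and the median of all genes, -0.20 (dashed line). Red and blue points passed the test as higher or lower. Plasma cell and leukocyte members lie mostly to the right, adhesion, YAP and receptor kinase members mostly to the left, and proteasome members near the dashed line. The leftmost adhesion point, PARVA, is a fitted value for a gene without myeloma counts.

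Genes of epithelial junctions and keratins gave no call with edgeR. Of 27 tested, edgeR called 0, limma 2 lower and DESeq2 13 lower, and 8 were lower at an unadjusted p under 0.05. In the same order, the lower counts over all 21814 genes were 86, 363, 1745 and 1793. A negative log2 fold change was seen for 25 of the 27. The median log2 fold change was -4.92 (-3.01 with limma). The carcinoma lines differed among themselves. CDH1 (E-cadherin) was at 1043 ± 47.2 CPM in DLD-1 and 1209 ± 74.2 CPM in CAPAN-2, at 102 and 50.9 CPM in H-23 and PANC-1, at 0.0349 CPM in RKO and at 0 in H-1299. Those of RKO and H-1299 were below the 0.384 ± 0.290 CPM of H-929 and the 2.07 ± 0.317 CPM of RPMI (-8.35 ± 4.41, adjusted p = 0.379). KRT8, the simple epithelial keratin, came nearest to the threshold, at 0.835 ± 0.308 and 1.83 ± 0.111 CPM against 53.5 CPM (RKO) to 5367 CPM (CAPAN-2), with no overlap (-10.68 ± 2.29, adjusted p = 0.0669, and 0.035 without RKO). Its partner KRT18 was at 49.2 ± 7.03 and 102 ± 3.66 CPM, which overlapped the 72.7 ± 9.89 CPM of RKO (-4.69 ± 1.44, adjusted p = 0.164).

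RPMI held several epithelial transcripts that H-929 did not. EPCAM, an epithelial adhesion molecule, was at 117 ± 1.37 CPM in RPMI and 0.0197 ± 0.0340 CPM in H-929. That level in RPMI was above RKO, H-23, H-1299 and PANC-1 (0.185 to 33.7 CPM) and below DLD-1 and CAPAN-2 (719 and 923 CPM), and no difference between the groups passed (-2.23 ± 3.07, adjusted p = 0.74). The membrane protease ST14 was at 513 CPM in RPMI and 4.78 CPM in H-929, the desmosomal DSP at 449 and 3.90 CPM, the tetraspanin CD9 at 369 and 2.32 CPM, and the splicing regulator ESRP1 at 48.3 and 0.113 CPM. KRT19, GRHL2 and RAB25, other epithelial genes, were at 0.061, 0 and 0.0132 CPM in RPMI. The summed level of the epithelial list was 440 CPM in H-929 and 2104 CPM in RPMI, against 615 CPM in RKO, 1316 CPM in H-1299 and 4698 to 23383 CPM in the other carcinoma lines. CAV1, a membrane scaffold, showed the same contrast, with 195 ± 11.5 CPM in RPMI and 4.30 ± 0.465 CPM in H-929 (-1.48 ± 1.63, adjusted p = 0.671). VIM (vimentin) was at 1183 ± 58.5 CPM in H-929 and 242 ± 21.6 CPM in RPMI, inside a carcinoma range of 0.661 CPM in DLD-1 to 3566 CPM in H-1299. Its log2 fold change was -0.84 ± 2.33 on group means and 2.19 with limma on mean logs, so no direction can be given.

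**Figure D4:**
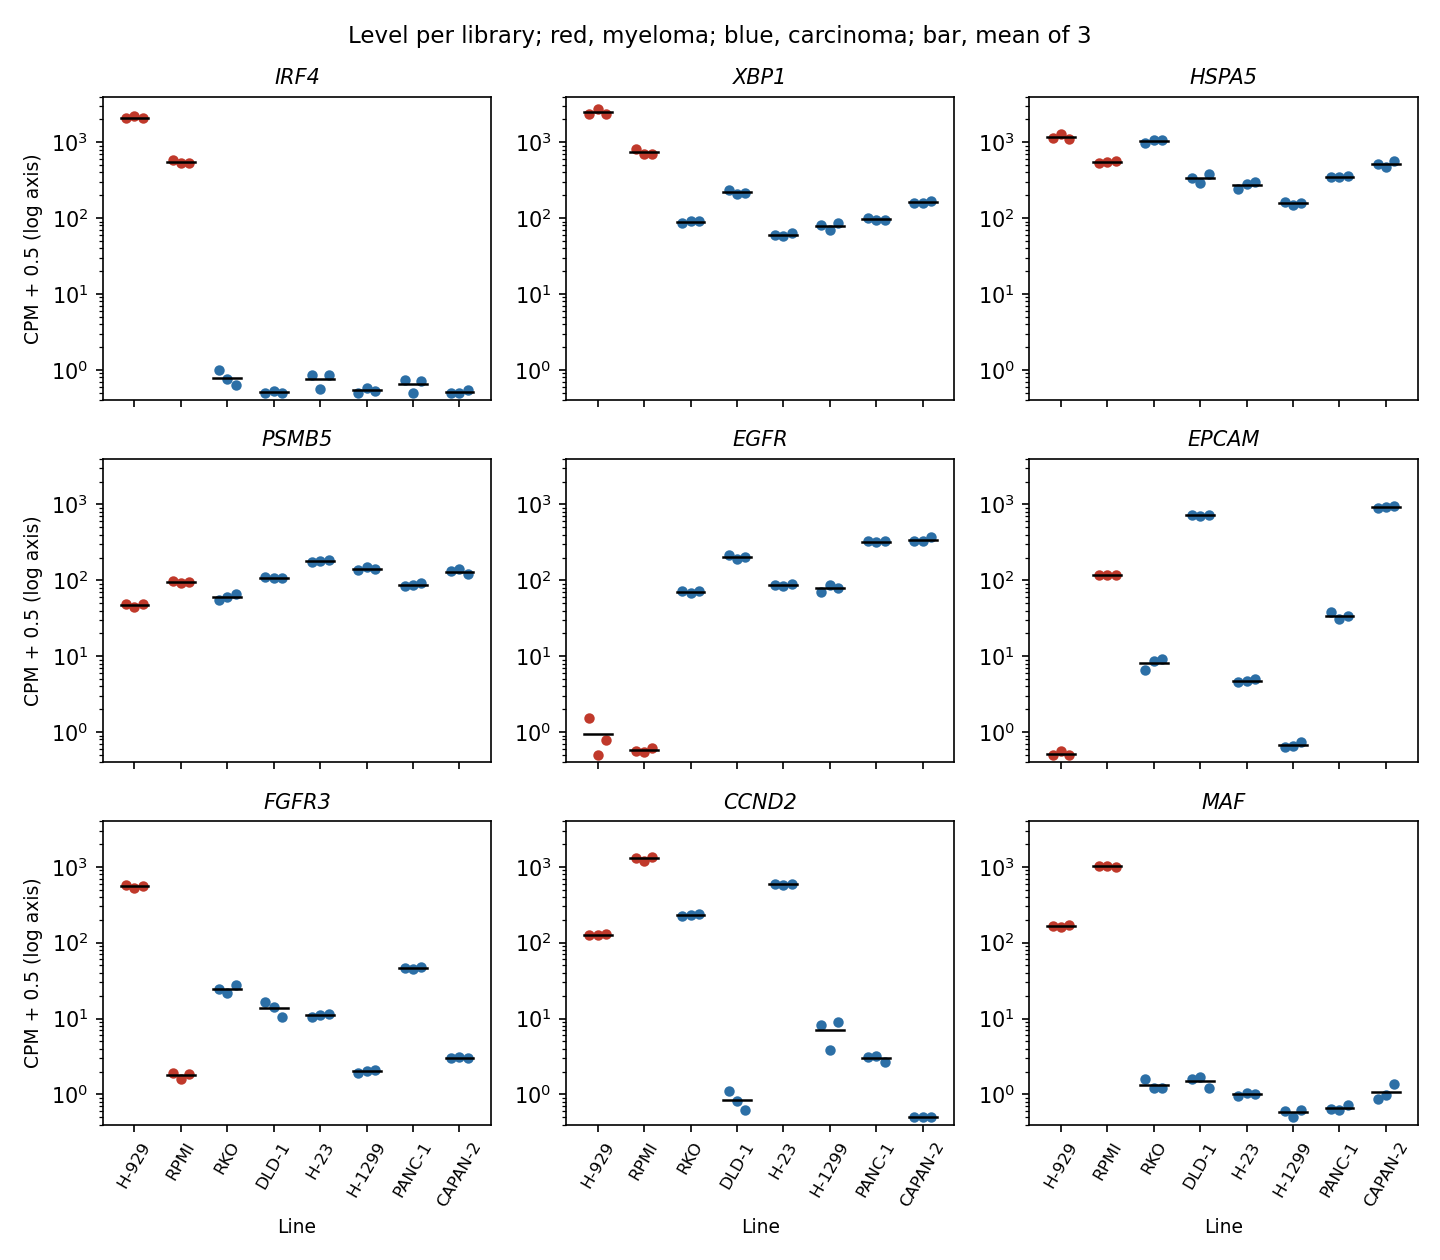
Level in each of the 24 DMSO libraries (points) with the mean of each line (bar), as CPM + 0.5 on a log axis, for 9 genes. IRF4 and MAF separate the myeloma lines (red) from all carcinoma lines (blue), EGFR separates them the other way, PSMB5 and HSPA5 overlap, and EPCAM, FGFR3 and CCND2 differ between H-929 and RPMI.

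No difference in baseline proteasome expression passed the test. Of 31 constitutive proteasome genes tested, edgeR, limma and DESeq2 each called 0, and 1 was higher at an unadjusted p under 0.05. With edgeR 1.05% of all genes were called higher and 0.394% lower, so 0 edgeR calls among so few genes is not particular to this list. Members ran from -0.73 to 0.97 with a median of 0.18 (-0.02 with library totals). PSMB5, the chymotrypsin-like subunit that carfilzomib binds, was at the lower end, with 46.7 ± 2.40 CPM in H-929 and 93.8 ± 2.37 CPM in RPMI against 59.9 CPM (RKO) to 180 CPM (H-23), which overlap (-0.73 ± 0.48, adjusted p = 0.467). PSMD4, a ubiquitin receptor of the regulatory particle, was at the upper end, at 481 and 307 CPM against 144 to 296 CPM (0.97 ± 0.36, adjusted p = 0.244). With 2 myeloma lines, standard errors of this size leave smaller differences undetectable, and a missed threshold does not show equal levels. Of the immunoproteasome, PSMB10 was at 68.9 ± 2.32 and 110 ± 3.60 CPM against 15.3 to 20.4 CPM in 5 carcinoma lines and 71.1 ± 2.20 CPM in CAPAN-2 (1.78 ± 0.63, adjusted p = 0.222), and it was called without CAPAN-2 (2.40, adjusted p = 0.0377). PSMB8 and PSMB9 have several rows each, and their levels were low with the rows summed. PSMB8 was then at 6.61 CPM in H-929 and 0.611 CPM in RPMI against 0.184 to 0.527 CPM (3.47, adjusted p = 0.0989). PSMB9 was at 1.18 and 0.403 CPM against 0.0106 to 1.61 CPM, highest in CAPAN-2 (0.72, adjusted p = 0.845). Reads that map to more than 1 copy may be missing from both sums.

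No difference in heat shock chaperones passed either. Of 21 tested, edgeR, limma and DESeq2 called 0, where edgeR called 1.05% of all genes higher and 0.394% lower. None reached an unadjusted p under 0.05, and the median was 0.26 (0.01 with limma). HSPA8, the constitutive cytosolic HSP70, was at 3665 ± 177 and 3323 ± 235 CPM against 1087 CPM (RKO) to 4160 CPM (H-1299), with a difference of 0.65 ± 0.44 (adjusted p = 0.475). HSPH1 was at 95.2 ± 6.34 and 305 ± 15.1 CPM against 57.3 CPM in RKO and 195 to 293 CPM in the others (-0.07 ± 0.63, adjusted p = 0.965). HSPB1 was at 108 ± 8.51 and 160 ± 4.83 CPM against 71.3 to 211 CPM (-0.06 ± 0.48, adjusted p = 0.963). Both signs changed between settings. The inducible HSP70 genes HSPA1A and HSPA1B are near-identical and share reads, so they were summed. That sum was at 0.560 ± 0.332 CPM in H-929 and 2.51 ± 1.24 CPM in RPMI against 1.61 to 7.22 CPM (-1.59 ± 0.91, adjusted p = 0.41), and reads that map to more than 1 copy may be missing from it.

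Survival and signalling genes showed few calls. The BCL2 family list gave 1 higher and 1 lower call, where 1.05% and 0.394% of all genes were called. Among 16 BCL2 family members, BMF, a BH3-only protein, was higher, at 114 ± 14.1 and 23.6 ± 2.01 CPM against 2.22 to 8.42 CPM (3.77 ± 0.66, adjusted p = 0.0364), but only RPMI could be left out without ending that call (0.0574 to 0.3), and it was not made in the carfilzomib libraries (0.0759). BOK was lower, at 0.357 ± 0.209 and 0.129 ± 0.0682 CPM against 38.5 to 50.5 CPM in 5 carcinoma lines and 11.2 ± 0.853 CPM in CAPAN-2 (-7.34 ± 0.96, adjusted p = 0.0158, and 0.0614 without RPMI). BCL2 was at 73.8 ± 0.490 and 144 ± 8.96 CPM against 0.539 to 13.1 CPM, with no overlap and no call (4.40 ± 0.97, adjusted p = 0.0705). MCL1, on which myeloma cells often depend, was at 1371 ± 104 CPM in H-929, and RPMI, at 347 ± 32.2 CPM, lay within the carcinoma range of 254 to 1097 CPM (0.69 ± 0.68, adjusted p = 0.629). BCL2L1 (BCL-XL) was at 23 ± 1.07 and 78.0 ± 6.22 CPM against 17 to 124 CPM (-0.51 ± 0.76, adjusted p = 0.759). The direction of MCL1 and of BCL2L1 reversed without H-929, to -0.60 and 0.14.

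Of 22 NF-kB pathway genes, edgeR called 0 (1 higher and 3 lower at an unadjusted p under 0.05), limma 1 lower, and DESeq2 1 higher and 3 lower. The background for these and the following genes was 1.05% of all genes called higher and 0.394% lower with edgeR. NFKB2 was at 116 ± 4.57 and 28.6 ± 3.23 CPM against 44.6 to 254 CPM (-0.53 ± 0.75, adjusted p = 0.745). Its log2 fold change reversed to 0.16 without RPMI. Of 21 proliferation genes, 0 were called by any of the 3 tools, 3 were higher at an unadjusted p under 0.05, and the median was 0.53. The antigen presentation genes with a row of their own, 3 of class I and CD74 of class II, gave 0 calls with each tool, and no unadjusted p under 0.05.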

How the data were processed

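RNA was sequenced with a stranded total RNA kit, per the labels' protocols, while the series' design text speaks of mRNA. The authors deposited raw counts per gene (33892 rows). Per the submitters' processing notes, bcl2fastq 2.19, FastQC, Trimmomatic, HISAT2, DESeq2 and hg38 were used. The counting program, annotation and strand setting are not given in the sources used here, so antisense partners may share reads, and 4803 rows share an identifier with another row. These were kept out of list counts.

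The DMSO counts of each line were summed and fitted with edgeR 4.0.16 (R 4.3.3): filterByExpr, TMM, quasi-likelihood test, Benjamini-Hochberg adjustment over 21814 genes, threshold 0.05. The same fit was also run on simulated line sums with known changes, and its outcome is not reported here. The alternatives were other scalings, filters and tools (limma 3.58.1, DESeq2 1.42.0), summed rows, thinning, libraries as units, libraries or lines left out, and the carfilzomib libraries. Named genes are 40 chosen by role, the 8 called genes with the widest gap between groups in log2(CPM + 0.5) in each direction, and the extreme called members of each of 25 lists. The gap ranking kept genes with a row of their own and left out immunoglobulin and T cell receptor segments, Y-linked genes and XIST. Members and lists were chosen with earlier results of these data known. Gene types came from GENCODE 29, by identifier. The p-values measure the spread among 8 lines. With libraries thinned to the lowest total, 241 genes were called higher and 88 lower, of which 184 and 78 were main calls. What limits the precision was not tested.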

Additional observations from a re-analysis of the deposited data

Results flagged for a closer look

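In 6 of the 67 named genes, 1 carcinoma line stood apart from the other 5 by Dixon's test on log2(CPM + 0.5), which flags about 5% of groups by chance. JCHAIN was at 0.31 CPM in RKO and at most 0.0224 CPM in the others, from 2 libraries at 0.486 and 0.445 CPM and the third at 0. CD48 was at 0.112 CPM in RKO and 0 in the others, and CSF2RB at 0.119 CPM in DLD-1 and at most 0.00964 CPM in the others, all far below the myeloma lines. The carcinoma libraries together held only 18 counts of JCHAIN, 5 of CD48 and 16 of CSF2RB, so few counts gave these flags. PSMB10 was at 71.1 CPM in CAPAN-2 and 15.3 to 20.4 CPM in the others, which places CAPAN-2 at the level of H-929 (68.9 CPM). HSPH1 was at 57.3 CPM in RKO and 194.6 to 293.4 CPM in the others. BOK was at 11.2 CPM in CAPAN-2 and 38.5 to 50.5 CPM in the others.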

How the results depend on the processing

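The count of higher and of lower genes stayed within 1.5 times of 230 and 86 under DESeq2 size factors, library totals, no count filter or one at a mean of 50, a 1.5-fold test, summed rows, thinning, 2 of 3 libraries per line and, in the same lines given carfilzomib, 219 and 61 calls, of which 118 and 36 were the same genes. It moved under DESeq2's Wald test (990 and 1745), limma on line means (407 and 363) and, with libraries as units, an edgeR fit without a block (7995 and 7553). With 1 line or 1 set of libraries left out the counts ran from 59 to 245 higher and from 21 to 93 lower. PANC-1 gave both lowest counts, and counts also moved without H-929 (126 and 51), RKO (133 and 55), DLD-1 (94 and 32), H-23 (121 and 46), H-1299 (150 and 55), CAPAN-2 (132 and 53) and, for lower genes, RPMI (27). The cause was not tested, except that fewer lines were then compared.

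Numbers of libraries did not pair them: same-numbered libraries of different lines had a median correlation of deviations of -0.000949 (84 pairs, none above 0.1), and with the replicate block the fit on libraries called 7933 and 7514.

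Directions reversed for named genes that were not called. VIM was 2.19 with limma and 2.24 with libraries as units, with or without the replicate block. HSPB1 was 0.01 with DESeq2 size factors, the Wald test, limma and thinning, 0.05 with libraries as units with or without the replicate block, and 2.44 in the carfilzomib libraries. With 1 line left out HSPB1 ran from -0.37 to 0.22, HSPH1 from -1.16 to 0.56, CCND2 from -0.11 to 3.86, MCL1 from -0.60 to 1.38, BCL2L1 from -1.68 to 0.14 and NFKB2 from -1.86 to 0.16. In the carfilzomib libraries HSPH1 was 0.80, NFKB2 0.27 and the HSPA1A and HSPA1B sum 2.22. DESeq2 gave no adjusted p for PRDM1 and IKZF3.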

Other observations

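Other groups of called genes were noticed after their values were seen, and no list of them was tested. The actin regulator NCKAP1 was at 10 and 2.56 CPM in H-929 and RPMI against 305 to 551 CPM in the carcinoma lines (log2 fold change -6.16), while its blood cell paralogue NCKAP1L was at 143 and 273 CPM against at most 0.812 CPM (10.17). Genes that work at the ER were called outside the list: the stress sensor kinase EIF2AK3 (PERK, 586 and 59.2 CPM), the degradation enzyme UBE2J1 (1117 and 424 CPM), the export factor PREB (196 and 345 CPM), TXNDC11 (636 and 266 CPM) and the cyclophilin PPIB (450 and 556 CPM), each with an adjusted p under 0.05.

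Several cancer-testis genes were among the calls, at different levels in the 2 lines. MORC1 was at 75.6 and 35.4 CPM in H-929 and RPMI and the pseudogene BAGE2 at 31 and 14.2 CPM. SSX1 was at 111 CPM in H-929 and 0.254 CPM in RPMI and MAGEB1 at 34.9 and 0.239 CPM, whereas MAGEC2 was at 3.27 and 17.7 CPM and CTAG2 at 3.12 and 8.43 CPM. The innate sensors TLR7 (12 and 15.6 CPM) and TLR9 (12.1 and 38.3 CPM) and the kinase BTK (57.6 and 65.9 CPM), which act in B cells, were called as higher in both lines. NCAM1 (CD56), an adhesion molecule of NK cells and of many myelomas, was at 294 and 141 CPM against at most 0.661 CPM in a carcinoma line (9.43). CD8B and CX3CR1, known from T and NK cells, were at 492 and 271 CPM in RPMI and at 0.041 and 0.294 CPM in H-929.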
